A study of Mus musculus with 3 samples.

Results

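The RNA of 10 glycolytic enzymes was followed in leukemia cells that express TBLR1-RARα (TR) and in normal marrow progenitors. The enzymes were taken by name, and were Hk2, Hk3, Pfkl, Pfkp, Aldoa, Gapdh, Pgk1, Eno1, Pkm and Ldha. The choice was made with earlier results of these data known, and leaves out Hk1, Pfkm, Pklr and Ldhb, isozymes of the same steps. How many of the 10 were called depends on this choice. The enzymes were 10 of the 16742 genes listed in at least 1 library, and all 10 were listed in every library. RNA-seq covered 3 libraries, 1 per condition, each made from a pool of 3 C57BL/6 mice whose labelled age was 6 to 8 weeks. The control library held lin- bone marrow cells of wild type mice, which are the cells left after depletion of mature lineage markers and which carried no retroviral vector. The TR1 and TR9 libraries held GFP+ bone marrow cells of TR leukemia mice, genotype TBLR1-RARa, in the third generation of transplantation. Each TR line goes back to the leukemia of 1 primary mouse, and the retroviral promoter of the pMSCV vector drives TR and GFP together. Control and TR cells were therefore isolated in different ways, and genotype, transplantation and sorting cannot be told apart.

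Glycolysis splits glucose into pyruvate in the cytosol, and lactate dehydrogenase then turns pyruvate into lactate. Most steps are carried out by isozymes that differ between tissues, and proliferating cells and granulocytes are known for relying on this pathway for energy. Red cells, which lose their mitochondria, depend on it entirely. Among the forms they use are Pklr for pyruvate kinase, Hk1 for hexokinase and Pfkm for phosphofructokinase, and these need not be the only ones. The hypoxia-inducible factor HIF-1 and the factor MYC are known activators of many glycolytic genes.

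Expected counts, the number of fragments that RSEM assigns to a gene, came to a total of 5488778 in control, 5571409 for TR1 and 5129662 for TR9. Levels are given as FPKM, which scales the count for transcript length and library total, so that levels can be set side by side between genes. A gene was called higher or lower where an exact Poisson test of the 2 libraries gave a false discovery rate no higher than 0.001 and its FPKM differed at least 2-fold. With 1 library per condition this test compares libraries and not conditions, and no difference below has a replicate check. Intervals are 95% exact intervals and cover counting error only. Of 10 erythroid marker genes, 10 were called lower in TR1 and in TR9, where 13.0% and 10.8% of all genes were. The summed FPKM of these 10 markers was 2734 in control, 7.53 for TR1 and 13.0 for TR9. The summed FPKM of 8 later granulocyte genes was 96.9, 22145 and 8779 in the same order, and that of 5 primary granule genes was 4251, 21278 and 23701. These sums do not rank the TR lines. S100a8 and S100a9 made up most of the 22145, with 8188 and 12864. From TR1 to TR9, FPKM rose for 4 of the 8 later genes, among them Camp and Ngp, and fell for 4. Among primary granule genes it rose for 3, as for Elane (9103 to 13178), and fell for 2, as for Mpo (7585 to 3514). Kit, a progenitor marker, had an FPKM of 73.49 in control, 29.13 in TR1 and 62.55 in TR9. Genes of the B cell list were low, with a summed FPKM of 12.0 in control, mostly Cd79b, and of 3.35 in TR1 and 5.29 in TR9, mostly Vpreb1, an early B cell gene that was called higher in TR9. Stroma and osteoblast genes were also present in control, with a summed FPKM of 845 for 6 genes against 8.71 in TR1 and 10.8 in TR9. Fewer cells of a type and less RNA per cell cannot be told apart in such bulk samples.

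Promoter sequences of 4 of the enzymes are shown because each holds at least 2 matches to the letters ACGTG, a core that HIF-1 is known to bind. Pkm and Ldha each have another listed promoter, which holds no ACGTG and is not shown. They were taken from RefSeq (GRCm38.p6), cover 250 bases before and 50 after a listed transcription start, and run 5′ to 3′ on the strand of the gene. Capitals mark ACGTG on either strand, which reads CACGT when it lies on the other strand.
Hk2 (chr6:82774405-82774704, minus strand): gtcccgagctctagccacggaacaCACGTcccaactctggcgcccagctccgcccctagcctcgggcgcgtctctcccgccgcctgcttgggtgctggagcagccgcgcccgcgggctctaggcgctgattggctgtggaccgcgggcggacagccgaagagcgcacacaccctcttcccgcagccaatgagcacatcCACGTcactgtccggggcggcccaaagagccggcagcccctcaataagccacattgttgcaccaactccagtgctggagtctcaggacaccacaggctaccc
Pgk1 (chrX:106186850-106187149, plus strand): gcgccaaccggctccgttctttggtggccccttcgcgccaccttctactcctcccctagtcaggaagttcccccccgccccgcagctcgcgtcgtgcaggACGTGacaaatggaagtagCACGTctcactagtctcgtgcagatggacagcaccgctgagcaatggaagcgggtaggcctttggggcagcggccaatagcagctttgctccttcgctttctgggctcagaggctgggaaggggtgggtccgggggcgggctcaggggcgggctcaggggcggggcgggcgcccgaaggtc
Pkm (chr9:59656977-59657276, plus strand): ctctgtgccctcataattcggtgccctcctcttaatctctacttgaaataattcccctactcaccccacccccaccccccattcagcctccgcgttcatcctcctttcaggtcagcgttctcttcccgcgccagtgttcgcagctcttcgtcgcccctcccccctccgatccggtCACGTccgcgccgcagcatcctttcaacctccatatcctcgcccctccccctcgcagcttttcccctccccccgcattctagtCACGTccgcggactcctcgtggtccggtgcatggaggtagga
Ldha (chr7:46845554-46845853, plus strand): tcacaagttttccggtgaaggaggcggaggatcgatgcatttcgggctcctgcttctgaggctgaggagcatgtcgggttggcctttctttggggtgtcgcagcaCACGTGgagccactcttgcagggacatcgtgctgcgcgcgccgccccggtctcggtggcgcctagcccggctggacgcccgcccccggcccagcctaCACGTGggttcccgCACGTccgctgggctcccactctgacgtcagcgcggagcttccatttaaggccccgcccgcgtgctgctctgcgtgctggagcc
All 10 enzymes had at least 1 promoter in the table, 16 in total. ACGTG on either strand was found in 8 of these 16 promoters, of 7 genes, against 19.6% of all 32851 promoters. Matches were counted on each strand, and Ldha had 5, of which 4 came from 2 copies of CACGTG, a palindrome that overlaps the core. CACGTG, the letters of the E-box to which MYC and its partner bind, was found in 1 of the 16 promoters and in 7.15% of all promoters. GCGTG, the other form of the HIF-1 core, was found in 8 of 16 promoters, of 5 genes, and in 32.4% of all. Some promoters of the same gene overlap, as for Aldoa and Eno1, so the 16 are not independent. No promoter of Eno1 held ACGTG, and each of its 3 held GCGTG. A match describes letters in this window and says nothing of binding in these cells.

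Hk2, Eno1 and Pkm were called higher in the TR1 library and in the TR9 library than in control, and the other 7 enzymes stayed under 2-fold. The log2 ratio of FPKM was above 0 for 10 of 10 enzymes in TR1, from 0.12 to 1.51, with a median of 0.90. Over all 16282 genes tested in this comparison the median was -0.29, so that of the enzymes lay 1.19 above it. In TR1, 3 of the 10 were called higher and 0 lower, where 8.09% of all genes tested were called higher and 13.0% lower. In TR9, 9 of 10 had a ratio above 0, with a median of 0.77 against -0.12 for all 16303 genes, a distance of 0.89. There, 3 of 10 were called higher and 0 lower, against 9.37% of all genes called higher and 10.8% lower. Each of the 10 reached an FPKM of 10 in some library, and among all genes that did so 11.3% were called higher in TR1 and 12.3% in TR9. The TR1 and TR9 comparisons share the control library and are not independent of each other. The shares at 1.5-fold and with TMM scaling that follow are over all genes, also those with few counts. They were not taken among genes with an FPKM of 10 or more. At a threshold of 1.5-fold with the same test, 8 of 10 enzymes were higher in TR1, where 11.0% of all genes were, and 6 of 10 in TR9, where 12.8% of all genes were. With TMM scaling, which centres the ratios on most genes and adds 0.25 to every log2 ratio in TR1, 8 of 10 enzymes were called higher in TR1, where 10.4% of all genes were, and the share of all genes called that were lower went from 61.7% to 48.4%.

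**Figure D1:**
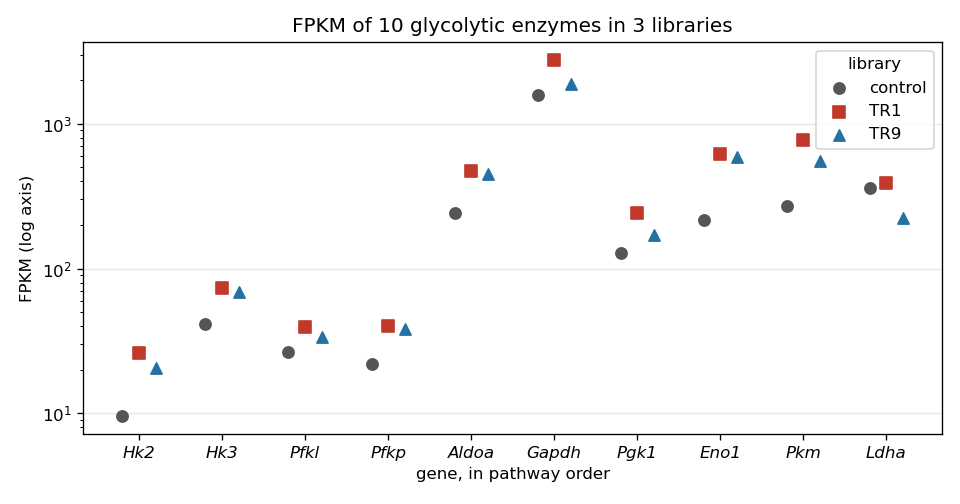
FPKM of the 10 enzymes (horizontal axis, in pathway order) on a log axis, with 1 point per library. Gapdh was the highest in each library, and TR9 lies below TR1 for all 10.

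The first step, phosphorylation of glucose by hexokinase, had a different makeup of isozymes in the TR libraries. Hk2, an inducible hexokinase bound to mitochondria, lies on chromosome 6 from 82725025 to 82774454 (coordinates here are of GRCm38 in GENCODE M21, since the deposited files carry none). Control held 292 expected counts of Hk2, TR1 818 and TR9 590, and its FPKM was 9.54, 26.25 and 20.59. Hk2 was thus lowest in control, and its log2 ratio to control was 1.46 for TR1 (interval 1.27 to 1.66) and 1.11 for TR9 (0.91 to 1.32). It was called higher in each comparison with control. Hk3, a hexokinase known from blood cells on chromosome 13 from 55005985 to 55021385, had an FPKM of 41.25 in control, 73.85 in TR1 and 68.68 in TR9. Its log2 ratios of 0.84 (0.71 to 0.97) and 0.74 (0.60 to 0.87) were under the 2-fold threshold. Hk1, the hexokinase with the highest level in control, moved the other way, from an FPKM of 142.33 in control to 40.46 in TR1 and 47.97 in TR9, and was called lower with log2 ratios of -1.81 (-1.92 to -1.71) and -1.57 (-1.67 to -1.47). Of the expected counts of hexokinase, Hk1 held 76.5% in control (95% exact interval 75.2 to 77.7), 30.5% in TR1 (28.9 to 32.2) and 37.7% in TR9 (35.8 to 39.5), and Hk2 and Hk3 held the rest. Summed over Hk1, Hk2 and Hk3, FPKM was 193 in control, 141 in TR1 and 137 in TR9, so the sum was lower in the TR libraries while Hk2 was higher.

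Phosphofructokinase, which commits sugar to glycolysis, showed the same kind of exchange with a nearly level sum of the deposited FPKM. Pfkl, the liver-type subunit on chromosome 10 from 77986947 to 78010083, had an FPKM of 26.48 in control, 39.3 in TR1 and 33.46 in TR9. Its log2 ratios were 0.57 (0.41 to 0.73) and 0.34 (0.17 to 0.50). Pfkp, the platelet-type subunit on chromosome 13 from 6579768 to 6648777, had 21.83, 40.26 and 38.21, with log2 ratios of 0.88 (0.72 to 1.05) and 0.81 (0.64 to 0.97). Neither passed the 2-fold threshold in a comparison with control, and only the upper bound for Pfkp in TR1 reached it. Pfkm, the muscle-type subunit, was called lower, with an FPKM of 40.35 in control, 5.42 for TR1 and 13.85 for TR9 and log2 ratios of -2.90 (-3.23 to -2.57) and -1.54 (-1.78 to -1.31). The share of Pfkm in the expected counts of the 3 subunits was 38.0% for control (95% exact interval 35.7 to 40.4), 4.84% in TR1 (3.90 to 5.93) and 12.6% in TR9 (11.0 to 14.3), and these intervals did not overlap. Summed FPKM of the subunits was 88.7, 85.0 and 85.5, a difference of under 5% of the control value.

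**Figure D2:**
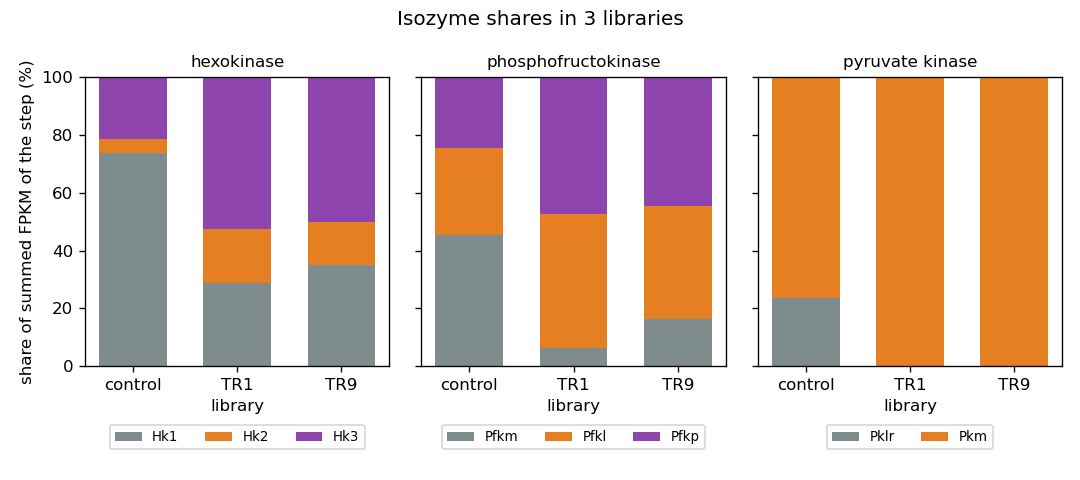
Share of each isozyme in the summed FPKM of its step (vertical axis, percent), with 1 bar per library, for hexokinase, phosphofructokinase and pyruvate kinase. Hk1, Pfkm and Pklr, drawn in grey, hold 73.7%, 45.5% and 23.6% in control and smaller shares in TR1 and TR9.

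Aldolase and the middle steps had ratios above 0 that stayed under 2-fold. Aldoa, which encodes the aldolase that splits fructose bisphosphate, lies on chromosome 7 from 126800790 to 126809108, and had an FPKM of 242.32 in control, 474.07 in TR1 and 451.14 in TR9. Its log2 ratio was 0.97 in TR1 (0.89 to 1.05), just under the threshold, and 0.90 in TR9 (0.82 to 0.98). Its counts were not whole, because RSEM divided some reads with near-identical copies, but the copies Aldoart1 and Aldoart2 had at most 4.19 expected counts in any library. Gapdh, glyceraldehyde-3-phosphate dehydrogenase on chromosome 6 from 125161715 to 125166467, is often used as a reference gene. Control held 10759 expected counts of it, TR1 19008 and TR9 12046, with an FPKM of 1583, 2748 and 1894, which made it the highest of the 10 in each library. The log2 ratio of Gapdh was 0.80 in TR1 (0.76 to 0.83) and 0.26 in TR9 (0.22 to 0.30), so it did not stand level across the libraries. Its counts were not whole either, and some of its reads were shared with other genes. Pgk1, the first enzyme of the pathway that makes ATP, lies on chromosome X from 106187100 to 106203699. It had an FPKM of 127.68, 240.89 and 170.88, with log2 ratios of 0.92 (0.82 to 1.01) and 0.42 (0.31 to 0.53). Gapdh and Pgk1, which follow each other in the pathway, were both nearer to control in TR9 than in TR1.

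Enolase and pyruvate kinase, late in the pathway, had the largest ratios of the 10 enzymes in TR1, and in TR9 Eno1 had the largest, followed by Hk2 and Pkm. Eno1, alpha-enolase on chromosome 4 from 150236721 to 150248879, had 2154 expected counts in the control library, 6261 for TR1 and 5484 for TR9, and an FPKM of 215.11, 614.23 and 585.19. It was called higher, 2.86-fold in TR1 (log2 ratio 1.51, 1.44 to 1.59) and 2.72-fold in TR9 (1.44, 1.37 to 1.52). Its near-identical copy Eno1b had at most 7.95 counts in any library. Pkm, which encodes the M forms of pyruvate kinase, lies on chromosome 9 from 59656368 to 59679375. It had 3618, 10480 and 6944 expected counts and an FPKM of 270.65, 770.21 and 555.11. Pkm was called higher, with a log2 ratio of 1.51 in TR1 (1.45 to 1.56) and 1.04 in TR9 (0.98 to 1.09), where the interval reaches below the 2-fold threshold. The gene-level values do not separate its M1 and M2 transcripts. Pklr, the pyruvate kinase of liver and red cells, fell from 1282 counts in control to 0 in TR1 and 1 in TR9. Against a floor of 3 counts, this is at least 434-fold lower for TR1 and at least 399-fold for TR9. Pklr held 23.6% of the pyruvate kinase FPKM in control. Summed over both genes, FPKM was 354 in control, 770 in TR1 and 555 in TR9.

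Ldha departed from the rest. This gene, the lactate dehydrogenase subunit that favours lactate formation, lies on chromosome 7 from 46841475 to 46855627. Control held 3281 expected counts of Ldha, TR1 3624 and TR9 1908, with an FPKM of 361.54, 392.71 and 224.7. The log2 ratio was 0.12 in TR1 (0.05 to 0.19) and -0.69 in TR9 (-0.77 to -0.60), so its FPKM in TR9 was 1.61-fold lower than in control. At the 1.5-fold threshold Ldha was the 1 enzyme of the 10 called lower in TR9, where 17.4% of all genes were. In TR1 the sign depended on scaling, with a log2 ratio of -0.11 under TPM scaling, which gives the FPKM of every library an equal total. By FPKM, Ldha stood next to Gapdh among the 10 enzymes in control, while Pkm, Eno1 and Aldoa stood above it in TR1 and in TR9. Whether such neighbours differ beyond the spread of replicates cannot be told from single libraries. The FPKM of Eno1 was 0.595 times that of Ldha in control, 1.56 times in TR1 and 2.60 times in TR9. Ldha held 97.5% to 99.5% of the lactate dehydrogenase FPKM in the 3 libraries. Ldhb, the heart-type subunit, fell from 60 counts in control to 0 in TR1 and 1 in TR9. These are at least 20.3-fold and 18.7-fold lower.

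**Figure D3:**
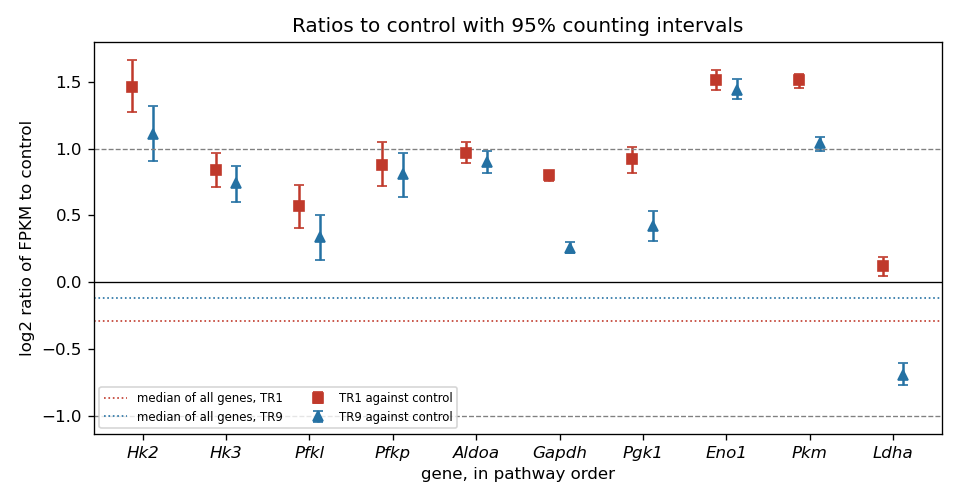
Log2 ratio of FPKM to control for the 10 enzymes, with 95% exact intervals that cover counting error only. Dashed lines mark 2-fold and dotted lines the median of all genes (-0.29 in TR1, -0.12 in TR9), and the TR9 point of Ldha is the only one under 0.

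Between the lines, all 10 enzymes had a lower FPKM in TR9 than in TR1, and none reached 2-fold. The log2 ratios of TR9 against TR1 ran from -0.81 to -0.07, with a median of -0.29 against 0.13 for all 15706 genes. In this comparison 0 of 10 were called, where 6.65% of all genes were. At 1.5-fold, Ldha was called lower (log2 ratio -0.81, -0.89 to -0.73), where 3.99% of all genes were. Gapdh (-0.54, -0.57 to -0.50), Pgk1 (-0.50, -0.59 to -0.40), Pkm (-0.47, -0.52 to -0.43), Hk2 (-0.35, -0.51 to -0.20) and Pfkl (-0.23, -0.38 to -0.08) were lower by less. The counting intervals of Hk3 (-0.22 to 0.01) and Pfkp (-0.22 to 0.06) included 0, and those of Aldoa (-0.14 to -0.01) and Eno1 (-0.12 to -0.02) came close to it. With TPM scaling the ratios of these last 4 genes lay just above 0, between 0.01 and 0.05. The 10 enzymes together took up 0.458% of the expected counts of the control library, 0.892% for TR1 and 0.675% for TR9.

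Steps of glycolysis outside the 10 enzymes were read from a list of 18 further genes, of which 15 were listed in a library. In TR1, 1 of the 15 was called higher and 5 lower, and in TR9 1 was higher and 4 lower. Of all genes, 8.09% were called higher and 13.0% lower in TR1, and 9.37% higher and 10.8% lower in TR9, so the 1 higher is near the share of all genes. The higher one was Gpi1, glucose-6-phosphate isomerase of the second step, with an FPKM of 240.2 in control, 740.54 in TR1 and 1015 in TR9. Its log2 ratio of 1.62 (1.57 to 1.68) in TR1 and 2.08 (2.03 to 2.13) in TR9 was above that of each of the 10 enzymes in the same library. Its counts were not whole in control and TR1, so some reads were shared with other genes. Tpi1, triosephosphate isomerase, had log2 ratios of 0.40 and 0.28, and neither passed the threshold. Pgam1, phosphoglycerate mutase, had an FPKM of 155.39, 310.65 and 300.84, just under 2-fold higher in TR1. The lower genes were Hk1, Pfkm, Pklr and Ldhb in each line, and in TR1 also Bpgm, which makes the 2,3-bisphosphoglycerate of red cells. Bpgm had 126 counts in the control library, 54 for TR1 and 67 for TR9. Hk1, Pfkm, Pklr and Bpgm are known for their part in red cells, and erythroid markers moved with them, among them Car1, a carbonic anhydrase, which had an FPKM of 1253 in control, 0.31 in TR1 and 1 in TR9. Of the 10 erythroid markers, 3 were at 0 in TR1 and 2 in TR9. Their part in these results was not tested. Of the low isozymes named by rule, Aldoc had at most 41 counts, Eno3 49, Ldhc 14 and Pgam2 6, and none was called.

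**Figure D4:**
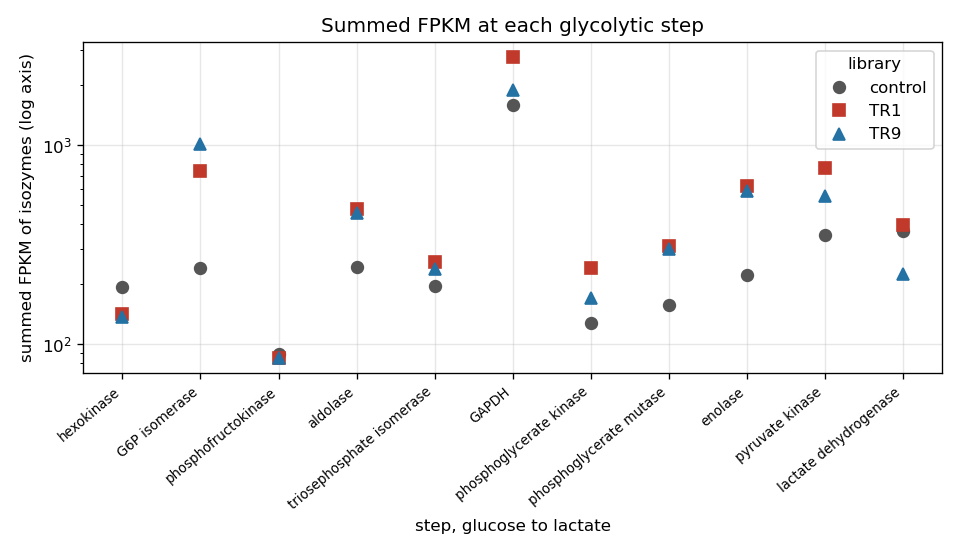
Summed FPKM of all listed isozymes at each step (log axis), from glucose to lactate, with 1 point per library. Hexokinase is lower in TR1 and TR9 than in control, phosphofructokinase is level at 85.0 to 88.7, and G6P isomerase and enolase stand farthest above control.

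Transport genes went both ways in the TR libraries. Of 10 genes of glucose and lactate transport, 3 were called higher and 3 lower in TR1, and 3 higher and 3 lower in TR9. Slc2a1, Slc16a3 and Slc2a9 were called higher in both lines, and of those called lower only Slc2a3 was shared by the lines. Of all genes, 8.09% were called higher and 13.0% lower in TR1, and 9.37% higher and 10.8% lower in TR9. Slc2a1, the glucose transporter GLUT1, had an FPKM of 2.97 in control, 15.2 in TR1 and 11.78 in TR9, with log2 ratios of 2.36 (1.87 to 2.87) and 1.99 (1.49 to 2.52). Slc2a3, the transporter GLUT3, had 26.04, 2.1 and 1.7, with log2 ratios of -3.63 (-4.09 to -3.20) and -3.94 (-4.47 to -3.44). The ratio of Slc2a1 to Slc2a3 was 0.114 in control, 7.24 in TR1 and 6.93 in TR9. Slc16a3, the monocarboxylate transporter MCT4 known for lactate export, had an FPKM of 6.79, 57.32 and 26.92 and was called higher, 8.44-fold in TR1 and 3.96-fold in TR9. Slc16a1, another monocarboxylate transporter, had a higher FPKM than Slc16a3 in control, and went the other way with 48.46, 32.21 and 23.3. It was called lower in TR9 (log2 ratio -1.06) but not in TR1 (-0.59). Bsg, the partner protein of lactate transporters, had 191.46, 134.27 and 125.5 and was not called.

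Genes that set the rate of glycolysis were mostly at or above their control level. Of 7 such genes, 3 were called higher in TR1 and 2 in TR9, and none lower, where 8.09% and 9.37% of all genes were called higher. Pfkfb3, which makes the activator of phosphofructokinase, had an FPKM of 14.32 in control, 32.4 for TR1 and 36.08 for TR9, and log2 ratios of 1.18 and 1.33. Tigar, which degrades that activator, was also called higher, with 1.60 (1.12 to 2.11) and 1.23 (0.71 to 1.76). Txnip, which restrains glucose uptake, had the highest mean FPKM of this list and log2 ratios of 0.40 and 0.17, and was not called.

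Hif1a, which encodes the regulated subunit of HIF-1, had 427 expected counts in the control library, 1721 for TR1 and 1743 for TR9. Its FPKM was 16.15, 63.95 and 70.45, and it was called higher with log2 ratios of 1.99 (1.83 to 2.14) and 2.13 (1.97 to 2.28). Of 9 genes of this factor and its control, 2 were called higher and 1 lower in each comparison with control, where 8.09% and 9.37% of all genes were called higher and 13.0% and 10.8% lower, and the list's median was -0.44 in TR1 and 0.04 in TR9. The second was Egln3, a HIF hydroxylase and itself a HIF target, with an FPKM of 11.54, 60.38 and 76.27. Of 16 hypoxia targets outside glycolysis, a list that also holds Egln3, 8 were called higher and 0 lower in TR1, and 8 higher and 0 lower in TR9, against those same shares of all genes. Their median log2 ratio was 1.25 for TR1 and 1.21 for TR9, against -0.29 and -0.12 for all genes. Vegfa, a growth factor for vessels, had log2 ratios of 2.60 (2.29 to 2.92) and 2.79 (2.48 to 3.11). Ero1a, an oxidase of the endoplasmic reticulum, had an FPKM of 29.74, 128.01 and 99.49. Car9, a carbonic anhydrase often used as a marker of hypoxia, had 39 counts in control and 44 in each TR library, with log2 ratios of 0.15 (-0.51 to 0.81) and 0.27 (-0.38 to 0.93). RNA of these genes does not measure HIF-1 protein. Car9 was chosen after its values were seen.

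Of 17 genes of the tricarboxylic acid cycle, 0 were called higher in TR1 or TR9, while 7 were called lower in TR1 and 4 in TR9, where 13.0% and 10.8% of all genes were called lower. All 17 had a log2 ratio under 0 in each comparison with control, with medians of -0.79 and -0.50 against -0.29 and -0.12 for all genes. With TMM scaling, a ratio closer to 0 than 0.25 in TR1 or 0.11 in TR9 turned positive. Idh3a, a subunit of isocitrate dehydrogenase, had an FPKM of 88.34 in control, 33.19 for TR1 and 38.84 for TR9, and log2 ratios of -1.41 (-1.57 to -1.25) and -1.19 (-1.34 to -1.03). Fh1, fumarase, had -1.40 and -1.09, and Dlst, of the oxoglutarate dehydrogenase complex, -1.25 and -1.03, and both were called lower. Mdh2, malate dehydrogenase, had the highest level of the list and log2 ratios of -0.42 and -0.37, and was not called. Of 13 genes of pyruvate entry into mitochondria, 3 were called lower in TR1 and 2 in TR9, and none higher, which for TR9 is near the share of all genes called lower. Pdhx, a component of the pyruvate dehydrogenase complex, had 238 counts in the control library, 69 for TR1 and 65 for TR9. Mpc1, a subunit of the mitochondrial pyruvate carrier, had log2 ratios of 0.41 (0.20 to 0.62) and 0.98 (0.78 to 1.19).

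**Figure D5:**
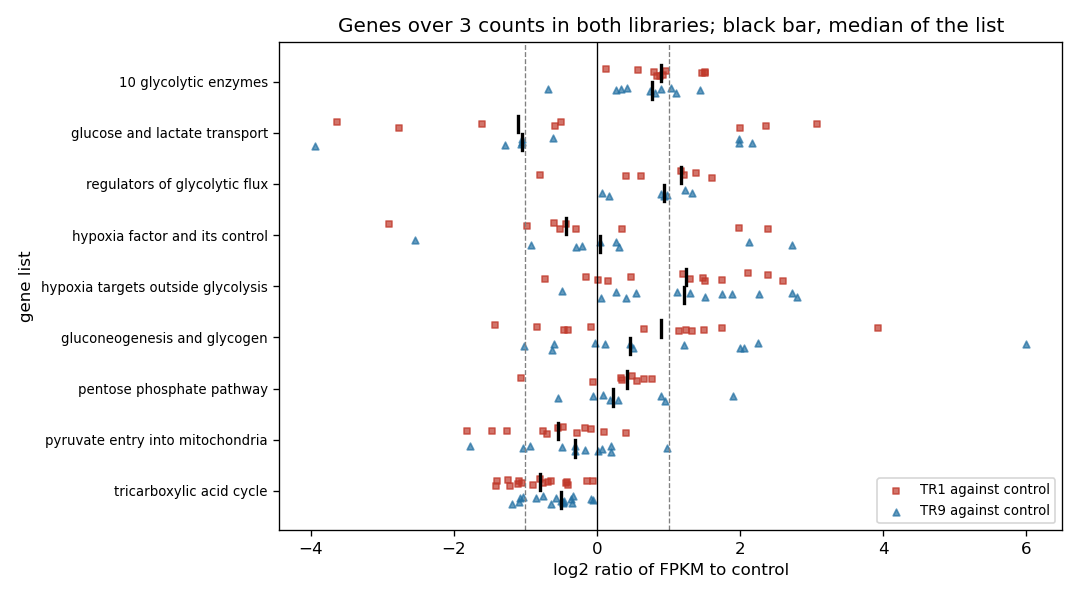
Log2 ratio of FPKM to control for the genes of each list, with 1 point per gene and TR line where both libraries had over 3 counts. Black bars are medians over all tested genes of the list and dashed lines mark 2-fold. All points of the tricarboxylic acid cycle lie under 0 in the deposited FPKM, and those closest to 0 turn positive with TMM scaling.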

How the data were processed

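RNA-seq of 3 libraries was analysed, 1 per condition, grouped by the titles of the samples. The submitters' processing notes name BWA, Bowtie, RSEM and the build mm9, and tool versions are not given in the sources used here. The deposited expected counts are not normalized. In the deposited FPKM, RSEM had corrected for transcript length and library total. Unlisted genes were taken as 0. The files give NCBI Gene IDs, and 16698 of 16742 matched the RefSeq table of GRCm38.p6, used for names. Coordinates come from GENCODE M21 (GRCm38) and promoters from RefSeq.

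Rounded expected counts of 2 libraries were compared by a two-sided exact Poisson test conditional on their totals, adjusted by Benjamini-Hochberg over all genes listed in either library (scipy 1.17.1), a Poisson method as in the study. FPKM under 0.01 were set to 0.01 for log2 ratios. Intervals are 95% Clopper-Pearson intervals of the count ratio, shifted to the FPKM ratio, and have no interval where a library had 3 counts or fewer; a fold was then taken against 3 counts (0.538 to 0.585 ppm of a library). A list is described by its counts and median. The members and lists were chosen with earlier results of these data known. Named genes were the 10 enzymes, the further glycolytic genes with an FPKM of at least 1, of each other list the 3 with the largest mean ratio called the same way in both lines with an FPKM of at least 5 and the one with the highest mean FPKM, and of each marker list the highest gene; the text gives those that bear on the enzymes. Kit, Vpreb1, Car9, Pgd, Pygl, Pgm1 and Slc16a1 were chosen after their values were seen. Sums over steps, the pyruvate kinase share and the shares called among genes with an FPKM of 10 or more were also added after seeing the data.

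Alternatives were TMM (edgeR 4.0.16, R 4.3.3), median of ratios, upper quartile and TPM scaling, totals without the 100 most abundant genes, a pseudocount of 1 FPKM, a minimum of 10 counts, edgeR's exact test with an assumed coefficient of variation of 0.2, other thresholds, and summed near-identical copies. In counts simulated for TR1 against control over 15757 genes, the Poisson test called 193 of 200 genes changed 4-fold and 0 unchanged genes. These counts were drawn with Poisson error alone, so they do not show how the test fares with variation between mice. A 4-fold change is also larger than any ratio of the 10 enzymes. Scripts ran in Python 3.11.15 (pandas 2.3.3, numpy 2.4.6), and plots were drawn with matplotlib 3.10.9.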

Additional observations from a re-analysis of the deposited data

Results flagged for a closer look

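Ldha moved in opposite directions in the lines, with a log2 ratio of 0.12 in TR1 against control and -0.69 in TR9 against control, and each counting interval lay away from 0. With 1 library per line, and a control that both comparisons share, this difference between the lines was not tested over replicates. With TPM scaling the ratio in TR1 was -0.11, so the opposite signs do not hold there.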

How the results depend on the processing

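No paired analysis was possible because each condition has 1 library. The number of enzymes called in TR1 against control, 3 as reported, was 8 with TMM, median of ratios or upper quartile scaling, 6 with totals without the 100 most abundant genes, 8 at 1.5-fold and 0 at 4-fold. In TR9 against control, 3 as reported, it was 4 with TMM scaling, 2 with TPM scaling, 7 at 1.5-fold (6 higher and 1 lower) and 0 at 4-fold. In TR9 against TR1, 0 as reported, it was 1 at 1.5-fold. With the assumed variation, the exact test of edgeR called 0 in TR1 and 0 in TR9 against control. It also called 0 of 200 4-fold changes in 15757 genes simulated with Poisson error alone. With this setting it could not call changes of that size, so its 0 cannot decide on the enzymes. A scaling adds the same value to every log2 ratio: for TR1 0.25 (TMM), 0.24 (median of ratios), 0.22 (upper quartile), 0.13 (without the 100 genes) and -0.23 (TPM), and the distance of the enzymes' median from that of all genes does not change with it. For TR9 TMM adds 0.11 and TPM -0.11, and for TR9 against TR1 TMM adds -0.13. Of all genes called in TR1, 61.7% were lower as reported, 49.0% with median of ratios, 50.3% with upper quartile and 73.3% with TPM scaling, and of those called in TR9 against TR1, 34.8% as reported and 45.7% with median of ratios. The median of the enzymes was 1.15, 1.14, 1.11, 1.03 and 0.67 in TR1 with TMM, median of ratios, upper quartile, without the 100 genes and with TPM. In TR9 it was 0.88 (TMM), 0.87 (median of ratios), 0.87 (upper quartile) and 0.66 (TPM), and in TR9 against TR1 -0.42, -0.44, -0.41 and -0.17. Ratios that changed sign did so with TPM scaling, and were Ldha in TR1 (-0.11) and, in TR9 against TR1, Hk3 (0.01), Pfkp (0.04), Aldoa (0.04) and Eno1 (0.05). As shares of expected counts in place of FPKM, Hk2 and Hk3 held 23.5%, 69.5% and 62.3% of hexokinase in control, TR1 and TR9, and Pfkl and Pfkp 62.0%, 95.2% and 87.4% of phosphofructokinase, because isozymes differ in length. Of the other values of single enzymes under these scalings, the pseudocount and the summed copies, 185 kept their direction and their side of the threshold, 19 passed it newly and 1, Pkm in TR9 with TPM scaling (0.93), no longer passed it.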

Other observations

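Of 14 listed genes of gluconeogenesis and glycogen, 6 were called higher and 1 lower in TR1, and of 13 in TR9 5 were higher and 1 lower. Of all genes, 8.09% were called higher and 13.0% lower in TR1, and 9.37% higher and 10.8% lower in TR9, so the 1 lower is near the share of all genes. Gys1, glycogen synthase, had an FPKM of 10.13 in control, 28.55 for TR1 and 48.08 for TR9, and log2 ratios to control of 1.49 (1.26 to 1.73) and 2.25 (2.03 to 2.47). Gbe1, the branching enzyme, had 6.56, 22.01 and 27.19, and Gyg, which primes glycogen, had 52.84, 124.49 and 72.54. Gys1 and Gbe1 were called higher in TR1 and in TR9, and Gyg in TR1 but not in TR9, where its log2 ratio was 0.46. Fbp1, a fructose bisphosphatase that works against phosphofructokinase, had 15 expected counts in the control library, 231 for TR1 and 897 for TR9. Its log2 ratio was 3.92 (3.17 to 4.78) in TR1 and 6.00 (5.27 to 6.84) in TR9.

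The pentose phosphate pathway leaves glycolysis after the first step. Of 8 listed genes of it, 0 were called higher and 1 lower in TR1, and 1 higher and 0 lower in TR9, near the shares of all genes. The gene with the highest mean level, Tkt, transketolase, had log2 ratios of 0.33 (0.28 to 0.39) and 0.29 (0.23 to 0.35). The gene called in TR9 was Pgd, which was named after its values were seen, with an FPKM of 105.92 in control, 156.53 in TR1 and 395.95 in TR9.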
